A study of Mus musculus with 2 samples.

Results

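The Akr1c genes encode a branch of the aldo-keto reductases, cytosolic enzymes that use NADPH or NADP to reduce or oxidise keto and hydroxy groups on steroids and other carbonyl compounds. The product of mouse Akr1c18 is the 20α-hydroxysteroid dehydrogenase that turns progesterone into a metabolite with little progestin activity, best known from the corpus luteum at the end of pregnancy. In the mouse adrenal gland, Akr1c18 is a marker of the X-zone, an inner layer of the cortex beside the medulla that is lost in males at puberty and in females during a first pregnancy or with age.

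The levels and transcript forms of these genes were read from long-read RNA sequencing of whole adrenal gland, in which each read is meant to cover a transcript from end to end. The series holds 1 group of 2 libraries, labelled biological replicates 2 and 1, each made from 1 µg of total RNA of female B6CASTF1/J mice, an F1 hybrid strain, aged 18 to 20 months. The libraries have separate biosamples but 1 shared donor entry, and no source says that they come from separate animals, so tests between them measure the spread between these 2 libraries, which may be technical. The samples analysed here hold no second treatment, genotype or tissue, and whether the mice had been pregnant is not given in the sources used here. ERCC and SIRV spike-in RNAs were added to both libraries, per the labels.

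Genes were taken by name, as all annotated genes whose symbol starts with Akr1c. The annotation holds 9 of them. Of these, 7 had at least 1 read in either library and 5 had reads in both, out of 17707 annotated genes with a read in either library. They carried 100 transcript models in replicate 2 and 95 in replicate 1. A cluster on chromosome 13 holds Akr1c14, Akr1c18, Akr1c13, Akr1c19, Akr1c12, Akr1c6, Akr1c20 and Akr1c21, in this order, within 537.5 kb of mm10, at chr13:4049011-4586541. The ninth, Akr1cl, lies alone on chromosome 1, at chr1:65012689-65032759 on the minus strand. Replicate 2 held 933963 reads on annotated genes and replicate 1 held 1412947, so 3 reads, the limit that a count of 0 allows, are worth 3.21 CPM (reads scaled to equal totals of gene reads) in replicate 2 and 2.12 CPM in replicate 1. All intervals are exact 95% Clopper-Pearson intervals or are derived from them, and they cover counting error only.

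All 9 genes have 7 inner exons of the same lengths, 168, 117, 78, 123, 110, 166 and 83 bases, and 2 of them, Akr1c19 and Akr1cl, have 2 exons before these where the others have 1. Their coding sequences, 969 bases in the 8 genes of the cluster and 966 in Akr1cl, were 71.1% to 96.2% identical over the 36 pairs, with a median of 74.0%. Akr1c12 and Akr1c13 were the closest pair at 96.2%, followed by Akr1c6 and Akr1c20 at 92.3%. The nearest relative of Akr1c18 was Akr1cl, at 77.5%, although the 2 genes lie on different chromosomes.

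**Figure D1:**
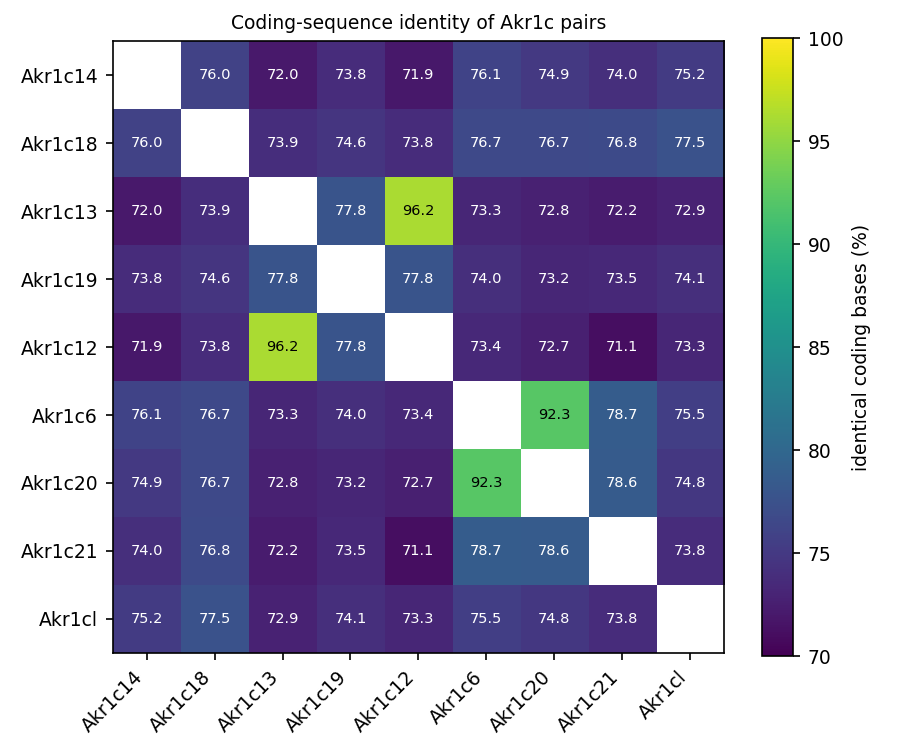
Share of identical bases (%) in global alignments of the coding sequences of each pair of Akr1c genes, from GENCODE M21 transcripts on GRCm38; genes run in chromosomal order, with Akr1cl last. The Akr1c12 and Akr1c13 pair stands highest at 96.2%, and Akr1c18 and Akr1cl share 77.5%.

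Akr1c18 and Akr1cl are the 2 genes on which nearly all results below turn, and the exon at which many of their reads began was the 123-base exon, exon 5 of 9 in Akr1c18 and exon 6 of 10 in Akr1cl. It is coding throughout in both. The exon is shown here, 5′ to 3′ in the sense of transcription, because it marks the start of the second most abundant form of each gene. Capitals mark the 10 bases that differ between them, and the other bases are identical (91.9%). The Akr1c18 exon is at chr13:4142127-4142249 and the Akr1cl exon at chr1:65021383-65021505, both on the minus strand of mm10.

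Akr1c18 exon 5: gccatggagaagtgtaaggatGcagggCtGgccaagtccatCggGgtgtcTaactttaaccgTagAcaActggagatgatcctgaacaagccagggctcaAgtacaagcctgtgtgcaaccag
Akr1cl exon 6: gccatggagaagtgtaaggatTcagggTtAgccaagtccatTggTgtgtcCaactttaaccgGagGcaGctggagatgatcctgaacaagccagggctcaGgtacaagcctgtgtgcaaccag

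Over all 36 pairs of members this exon was 78.9% to 97.6% identical, with a median of 86.2%. The 78-base exon before it, which was skipped in a minor form of Akr1c18, differed at 11 bases between these genes (85.9% identical). It is at chr13:4143218-4143295 in Akr1c18 and at chr1:65021919-65021996 in Akr1cl, and capitals again mark the bases that differ.

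Akr1c18 exon 4: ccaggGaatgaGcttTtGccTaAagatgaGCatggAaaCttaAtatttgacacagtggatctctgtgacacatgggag
Akr1cl exon 5: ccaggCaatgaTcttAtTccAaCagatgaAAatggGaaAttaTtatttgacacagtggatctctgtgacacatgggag

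Taken as 1 family, the Akr1c genes had 3897 reads in replicate 2, a share of 0.417% (interval 0.404% to 0.431%). In replicate 1 they had 2627 reads, a share of 0.186% (interval 0.179% to 0.193%). Without Akr1cl, which the name rule takes although it lies outside the cluster, the share was 0.277% (2588 reads) in replicate 2 and 0.0328% (463 reads) in replicate 1. Almost all reads of the 9 genes came from Akr1c18 and Akr1cl, with 99.7% of the family's reads in replicate 2 and 99.2% in replicate 1. Which of them led differed between the libraries. Akr1c18 held 66.2% of the family's reads in replicate 2 and 16.8% in replicate 1. By mean CPM Akr1c18 had rank 51 and Akr1cl rank 53 of all genes. The genes nearest to Akr1c18 in mean CPM, a measure over these 2 libraries, were Cox4i1, a subunit of cytochrome c oxidase, at 1563 CPM, Kcnk3, a potassium channel, at 1475 CPM, and Ghitm, which encodes a protein of the mitochondrial inner membrane, at 1563 CPM.

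Akr1c18 had 2578 reads, or 2760 CPM, in replicate 2 and 441 reads, or 312 CPM, in replicate 1. The mean was 1536 ± 1731 CPM (SD, n = 2), so the spread exceeded the mean. Akr1cl, whose symbol marks it as Akr1c-like, had 1309 reads, or 1402 CPM, in replicate 2 and 2164 reads, or 1532 CPM, in replicate 1, with a mean of 1467 ± 91.9 CPM (SD, n = 2). Per kilobase of the main transcript, Akr1c18 was at 2300 CPM in replicate 2 and 260 CPM in replicate 1, whereas Akr1cl was at 796 CPM in replicate 2 and 870 CPM in replicate 1. Akr1c18 thus lay above Akr1cl in replicate 2 and below it in replicate 1.

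The other cluster members were at or near 0, and no order among them can be read from so few reads. Akr1c13 had 6 reads (6.42 CPM, interval 2.36 to 14.0) in replicate 2 and 14 reads (9.91 CPM, interval 5.42 to 16.6) in replicate 1. Akr1c14, which encodes a 3α-hydroxysteroid dehydrogenase, had 2 reads (2.14 CPM) in replicate 2 and 5 reads (3.54 CPM) in replicate 1. Akr1c20 had 1 read in each library. Akr1c21, known in the mouse as a 17α-hydroxysteroid dehydrogenase, had 1 read in replicate 2 and 0 in replicate 1, and Akr1c19 had 0 reads in replicate 2 and 2 in replicate 1. Akr1c12 and the 17β-hydroxysteroid dehydrogenase gene Akr1c6 had 0 reads in both libraries, which allows up to 3.21 CPM in replicate 2 and 2.12 CPM in replicate 1. As Akr1c12 and Akr1c13 are near-identical in their coding parts, the assignment of reads between them is uncertain.

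**Figure D2:**
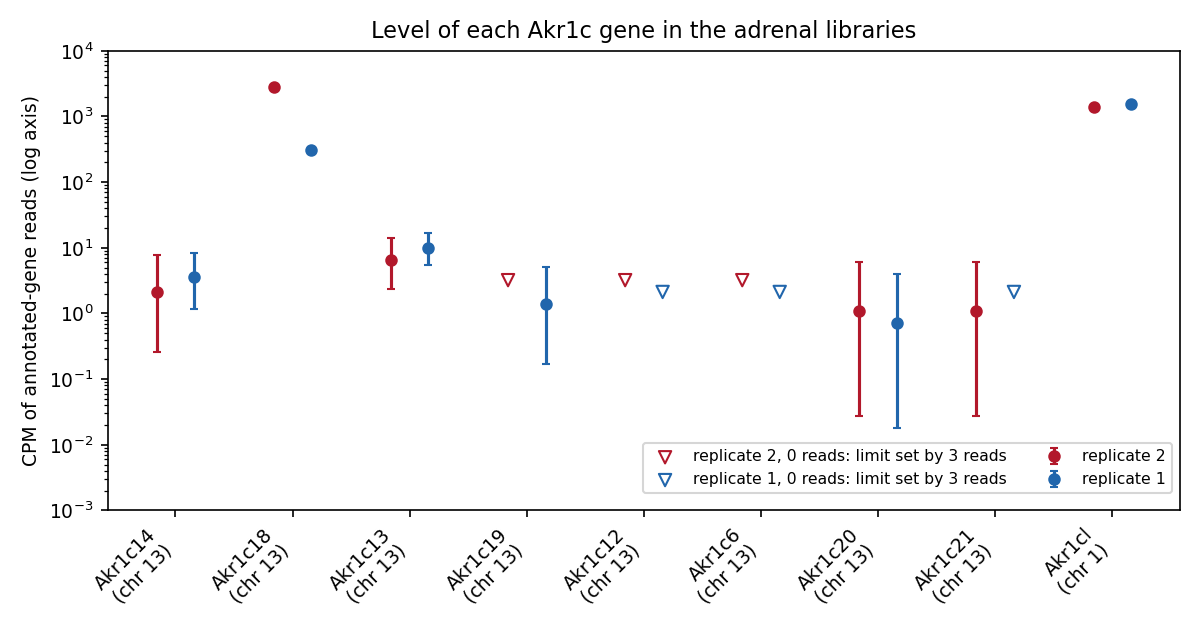
CPM (log axis) of each Akr1c gene in replicate 2 (red) and replicate 1 (blue), genes in chromosomal order with Akr1cl last; bars are exact 95% intervals and open triangles mark 0 reads, placed at the limit set by 3 reads. Akr1c18 and Akr1cl stand above all others, and of genes with 10 or more reads only Akr1c18 lies far apart between the libraries, at 2760 CPM in replicate 2 and 312 CPM in replicate 1.

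Around the cluster few reads were found. All 9 other annotated genes that overlap the cluster's span, pseudogenes and noncoding RNAs, had 0 reads in both libraries. So had Gm47853, the pseudogene next to the Akr1c14 end. At the other end Akr1e1, an aldo-keto reductase of another branch, had 31 reads in replicate 2 and 53 in replicate 1. Within the span, 4 gene models new to the annotation held at most 1 read each. No other gene of the cluster's span thus came near the 2578 reads of Akr1c18 in replicate 2 or its 441 in replicate 1.

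Between the libraries, Akr1c18 was 8.65-fold higher in replicate 2 after scaling by TMM, with an interval of 7.81 to 9.59. Akr1cl was 0.895 times its level in replicate 1 (interval 0.835 to 0.959), and Akr1c13 0.634 times (0.200 to 1.76). In an exact binomial test on the reads of both libraries, with Benjamini-Hochberg adjustment over 11068 genes with 10 or more reads, Akr1c18 (adjusted p with a -log10 of 568) and Akr1cl (adjusted p = 0.0178) passed and Akr1c13 (adjusted p = 0.800) did not. Thus 2 of the 3 measured members passed, 1 in each direction, where 11.6% of all tested genes did, 5.74% higher in replicate 2 and 5.88% higher in replicate 1. Genes with more reads passed more often, at 19.6% of the 6491 genes with 50 or more reads. With total gene reads in place of TMM the Akr1cl difference did not pass (adjusted p = 0.0826), and likewise without genomic and antisense models (adjusted p = 0.0643). With the ERCC spike-in total as the scale, the median log2 ratio over all genes was -0.34 in place of -0.02, 2360 genes passed in place of 1286, and 10.3% of these were higher in replicate 2 in place of 49.4%, while the log2 ratio of Akr1c18 was 2.79 and that of Akr1cl -0.49. In bulk tissue, fewer cells that express a gene and less RNA per cell cannot be told apart.

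The binomial test sees counting error only, and the typical spread between these libraries was wider. Its coefficient of variation over all genes, estimated in edgeR, was 21.5%. Set against that spread in edgeR's exact test, 27 genes passed (0.244% of those tested). Akr1c18 was among them with an adjusted p of 2.22e-07, and Akr1cl and Akr1c13 were not, both with an adjusted p of 1. Of 4377 genes with 100 or more reads, 96.6% lay within a factor of 2 of equal levels, and Akr1c18 had the second highest fold, below that of Oaz1-ps. Among these genes, the ones whose ratios lay nearest to that of Akr1c18 were Oaz1-ps, a processed pseudogene (9.89-fold), the inducible heat shock genes Hspa1b (4.78-fold) and Hspa1a (4.35-fold), and Apoc1, an apolipoprotein gene (4.74-fold), as judged by the difference of log2 ratios between the 2 libraries. Pik3c2g, with 84 reads in all, lay below the limit of 100 reads and had a ratio as near (9.82-fold).

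Other genes that mark the X-zone or the inner cortex of the mouse moved in both directions. All 7 on the list, Akr1c18 included, had 10 or more reads. By the binomial test 4 were higher in replicate 2, Akr1c18 itself among them, 1 was lower and 2 did not pass. Of all tested genes, 5.74% were higher in replicate 2 and 5.88% were lower. The median fold of the 7, again with Akr1c18, was 1.78, against 0.986 over all tested genes. Pik3c2g, a lipid kinase gene, had 73 reads in replicate 2 and 11 in replicate 1 (9.82-fold, interval 5.18 to 20.5), and it too passed edgeR's exact test (adjusted p = 0.000143). Srd5a2, a steroid 5α-reductase that acts on progesterone among other steroids, had 242 reads in replicate 2 and 115 in replicate 1 (3.11-fold, interval 2.48 to 3.92). Sbsn had 275 reads in replicate 2 and 232 in replicate 1 (1.75-fold, interval 1.47 to 2.10). In the opposite direction, Cyp2f2, a cytochrome P450 gene, had 169 reads in replicate 2 and 497 in replicate 1 (0.503-fold). Thrb, a thyroid hormone receptor gene, was at 12 reads in replicate 2 and 10 reads in replicate 1 (1.78-fold, interval 0.703 to 4.59). Frmpd4 had 5 in each library, which after scaling is 1.48-fold (interval 0.340 to 6.43). Of the list, only Cyp2f2 thus had a fold below 1, and the intervals of Thrb and Frmpd4 include 1. Srd5a2, Sbsn and Cyp2f2 did not pass edgeR's exact test, with adjusted p-values of 0.151, 1 and 0.971.

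The libraries also differed in marker genes of skeletal muscle and brown fat, and how these reads came into the libraries was not tested. The 6 skeletal muscle markers summed to 2 reads (0.000214% of gene reads) in replicate 2 and 1016 reads (0.0719%) in replicate 1, and the 4 that could be tested were all lower in replicate 2. Of these, the actin gene Acta1 had 0 reads in replicate 2 and 333 in replicate 1, the creatine kinase gene Ckm 0 in replicate 2 and 240 in replicate 1, the calcium pump gene Atp2a1 1 in replicate 2 and 407 in replicate 1, and the myosin light chain gene Mylpf 1 in replicate 2 and 27 in replicate 1. The 6 brown fat markers summed to 1747 reads (0.187%) in replicate 2 and 4743 reads (0.336%) in replicate 1. Ucp1, the uncoupling protein of brown fat, had 562 reads in replicate 2 and 2384 in replicate 1 (0.349-fold), and the fatty acid elongase gene Elovl3 had 176 in replicate 2 and 867 in replicate 1 (0.300-fold). Neither Ucp1 nor Elovl3 passed edgeR's exact test (adjusted p = 0.171 and 0.0721). The other 4 brown fat markers, Cidea and Cox8b among them, did not pass the binomial test. The part of these tissues in the Akr1c18 ratio was not tested.

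The gland itself was well represented in both libraries. All 9 adrenal cortex markers were detected in each, where they made up 7.48% of all gene reads (replicate 2) and 7.53% (replicate 1). By the binomial test 4 of these were higher in replicate 2, 3 were lower and 2 did not pass. Among all tested genes the share that passed was 11.6%, and among those with 50 or more reads 19.6%. Higher were Mrap (2.13-fold), Nr5a1 (1.52-fold), Star (1.47-fold) and Cyp21a1 (1.12-fold). Lower were Cyp11a1 (0.939-fold), Cyp11b1 (0.649-fold) and Cyp11b2 (0.664-fold). No cortex marker passed edgeR's exact test. All 8 markers of the medulla, the catecholamine-making core of the gland that the X-zone borders, were also detected, at 0.983% in replicate 2 and 1.25% in replicate 1. Of these, 4 were lower in replicate 2 by the binomial test and 4 did not pass, where 5.88% of all tested genes were lower. The 4 were the granule protein genes Chga (0.763-fold) and Chgb (0.784-fold), the tyrosine hydroxylase gene Th (0.656-fold) and the neuropeptide gene Npy (0.753-fold). The part of the medulla in the Akr1c18 ratio was not tested.

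The ovary, the other well-known site of Akr1c18, left few reads. The 8 ovarian markers summed to 9 reads in replicate 2 and 29 in replicate 1. Fshr, Amh and Zp3, which mark granulosa cells and oocytes, were at 0 in both libraries, and Foxl2, also of granulosa cells, had 1 read in replicate 2 and 25 in replicate 1. The oocyte gene Gdf9 ran the other way, with 7 reads in replicate 2 and 2 in replicate 1. The receptors of the corpus luteum, Lhcgr and Ptgfr, had 0 reads each in replicate 2 and 1 each in replicate 1. Liver and kidney markers were also read, since other Akr1c genes are known from those organs. Of liver genes, Alb and Apoa1 had 2 reads each in replicate 2 and 4 each in replicate 1, whereas Cyp2e1 had 112 reads (119.9 CPM) in replicate 2 and 219 reads (155.0 CPM) in replicate 1. Of kidney genes, Umod, Slc12a1, Kap and Lrp2 had 0 reads in both. The remaining kidney markers were low but detected. For Aqp2 the counts were 2 (replicate 2) and 4 (replicate 1). Those of Slc34a1 were 2 (replicate 2) and 3 (replicate 1).

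**Figure D3:**
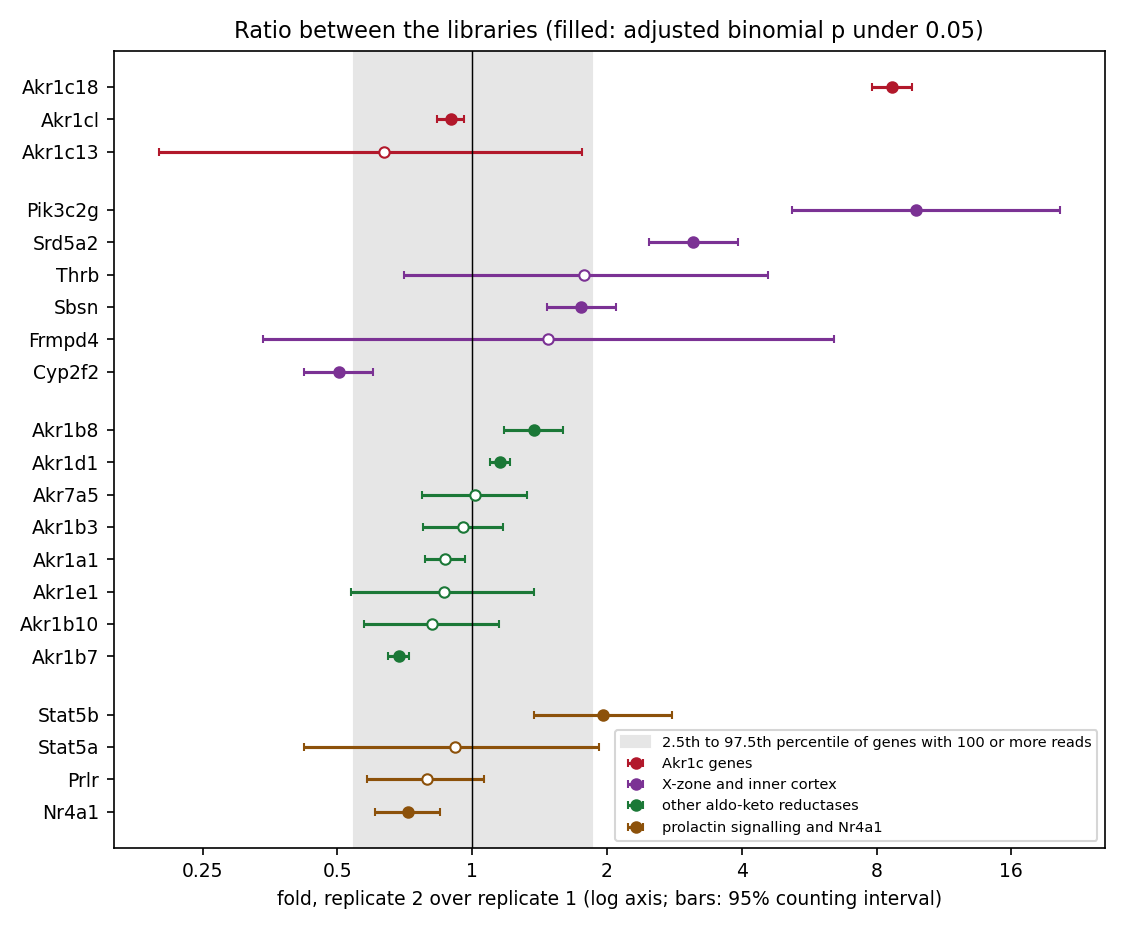
Fold of replicate 2 over replicate 1 (log axis) with 95% counting intervals for genes with 10 or more reads: Akr1c genes, X-zone and inner cortex genes, other aldo-keto reductases, and genes known to regulate Akr1c18 in the ovary; filled points passed the exact binomial test and the grey band spans the middle 95% of genes with 100 or more reads. Akr1c18 at 8.65-fold and Pik3c2g at 9.82-fold lie far to the right of the band, whereas the point of every aldo-keto reductase outside Akr1c lies within it.

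Aldo-keto reductases outside the Akr1c branch lay closer to equal levels than Akr1c18, as did Akr1cl at 0.895-fold. All 8 had 10 or more reads, 2 were higher in replicate 2, 1 was lower and 5 did not pass the binomial test, with a median fold of 0.913. Of all tested genes, 11.6% passed, and of those with 50 or more reads 19.6%. Akr1d1, the steroid 5β-reductase, had 2777 reads in replicate 2 and 3558 in replicate 1 (1.15-fold, interval 1.10 to 1.21). Akr1b8 had 331 reads in replicate 2 and 357 in replicate 1 (1.37-fold, interval 1.18 to 1.60). Akr1b7, an abundant aldose reductase-like gene of the adrenal cortex, had 1859 reads in replicate 2 and 4015 in replicate 1 (0.685-fold, interval 0.648 to 0.724). The aldehyde reductase gene Akr1a1, with 583 reads in replicate 2 and 990 in replicate 1, did not pass (0.871-fold, adjusted binomial p = 0.0666). None of the 8 passed edgeR's exact test. With the spike-in scale Akr1d1 was on the other side of 1 (0.920-fold) and Akr1b8 no longer passed (adjusted binomial p = 0.492).

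Progesterone, the substrate of the Akr1c18 enzyme, lies on the path from cholesterol to corticosterone. Of 10 measured genes of that path, 3 were higher in replicate 2 by the binomial test, 4 were lower and 3 did not pass, with a median fold of 0.914. Among all tested genes 11.6% passed, and among those with 50 or more reads 19.6%. Star, which brings cholesterol into the mitochondrion, was 1.47-fold higher, and Fdx1, the ferredoxin that feeds electrons to mitochondrial P450 enzymes, 2.69-fold higher. Cyp21a1, which takes progesterone toward corticosterone, was 1.12-fold higher, whereas Cyp11a1, which makes the first cut in cholesterol (0.939-fold), Fdxr (0.684-fold), Cyp11b1, which makes corticosterone (0.649-fold), and Cyp11b2, which makes aldosterone (0.664-fold), were lower. With the spike-in scale Cyp21a1 was lower too (0.896-fold). Hsd3b1, which makes progesterone, was 1.01-fold (adjusted p = 0.968) and Cyp17a1, which the mouse adrenal is known to lack, had 4 reads in replicate 2 and 0 in replicate 1. None of these passed edgeR's exact test.

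Of 14 measured genes for other steroid reductases and dehydrogenases, 3 were higher in replicate 2 by the binomial test, 2 were lower and 9 did not pass, where 11.6% of all tested genes passed. Their median fold was 0.925. Beside Srd5a2 and Akr1d1, already described, Hsd17b7, which also serves cholesterol synthesis, had 79 reads in replicate 2 and 61 in replicate 1 (1.92-fold). With the spike-in scale it did not pass (adjusted binomial p = 0.0676). Hsd17b4 had 280 reads in replicate 2 and 609 in replicate 1 (0.680-fold), and Hsd17b12 had 120 in replicate 2 and 282 in replicate 1 (0.630-fold). Both are known from fatty acid metabolism. Hsd17b2 and Hsd17b6 were at 0 in both libraries.

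Prolactin acting through Prlr and Stat5 is known from the ovary to keep Akr1c18 low, and prostaglandin F2α acting through Ptgfr and Nr4a1 to raise it. Prlr had 70 reads in replicate 2 and 131 in replicate 1 (0.790-fold, adjusted binomial p = 0.396), and Stat5a had 13 reads in replicate 2 and 21 in replicate 1. Stat5b was higher in replicate 2, with 78 reads against 59 in replicate 1 (1.96-fold, interval 1.38 to 2.79), but not with the spike-in scale (adjusted binomial p = 0.0556). Nr4a1 was lower, with 217 reads in replicate 2 and 447 in replicate 1 (0.718-fold, interval 0.608 to 0.846). Over the 4 measured genes of this list, 1 was higher, 1 was lower and 2 did not pass, where 11.6% of all tested genes passed. Neither of the 2 that passed the binomial test passed edgeR's exact test.

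Long reads also showed which transcripts made up these levels. The main form of Akr1c18 was Akr1c18-201, a 9-exon coding transcript of 1200 bases, with 1890 of 2578 reads (73.3%, interval 71.6% to 75.01%) in replicate 2 and 374 of 441 (84.8%, interval 81.1% to 88.03%) in replicate 1. The main form of Akr1cl was the 10-exon Akr1cl-201, with 799 of 1309 reads (61.0%, interval 58.3% to 63.7%) in replicate 2 and 1627 of 2164 (75.2%, interval 73.3% to 77.0%) in replicate 1. The share of the main form was thus lower in replicate 2 for both genes, with a difference of -11.5 percentage points in Akr1c18 and -14.1 in Akr1cl. Both differences passed a two-sided Fisher's exact test adjusted over 6413 genes with 20 or more reads in each library (adjusted p = 2.60e-05 for Akr1c18 and 1.85e-15 for Akr1cl). Of all genes, 2.21% passed this test, 2.0% with a lower share in replicate 2 and 0.218% with a higher one, and the median difference over all genes was -2.20 points. In an alternative, incomplete splice matches were added to the known transcript that contains them, where only 1 does. Both genes still passed Fisher's exact test (adjusted p = 1.08e-06 for Akr1c18 and 3.71e-13 for Akr1cl), as did 4.8% of all genes. When incomplete splice matches and genomic models were left out, neither gene passed, with 95.3% in replicate 2 and 95.7% in replicate 1 for Akr1c18, and 88.3% in replicate 2 and 90.4% in replicate 1 for Akr1cl.

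A form that lacks the 5′ part made up most of that difference in each gene. The second form of both genes kept the last 5 exons and nothing upstream, so that it began with the 123-base exon printed above. In Akr1c18 it held 525 reads (20.4% of the gene, interval 18.8% to 22.0%) in replicate 2 and 42 reads (9.52%, interval 6.95% to 12.7%) in replicate 1. In Akr1cl it held 249 reads (19.0%, interval 16.9% to 21.3%) in replicate 2 and 205 reads (9.47%, interval 8.27% to 10.8%) in replicate 1. The 2 genes thus had close shares of this form within each library, and in both the share was larger in replicate 2. Their total levels did not move together, at 8.65-fold for Akr1c18 and 0.895-fold for Akr1cl, where the latter did not pass edgeR's exact test. The files class the form as an incomplete splice match that lacks the 5′ part, and model ends there are set to annotated exon edges, so the exact base at which its reads began is not known.

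As levels, the full-length Akr1c18 transcript was at 2024 CPM in replicate 2 and 265 CPM in replicate 1 (7.48-fold, interval 6.69 to 8.38), and its 5-exon form at 562 CPM in replicate 2 and 29.7 CPM in replicate 1 (18.5-fold, interval 13.5 to 26.0). For Akr1cl, the full-length transcript was at 855 CPM in replicate 2 and 1151 CPM in replicate 1 (0.726-fold, interval 0.667 to 0.791), and the 5-exon form at 267 CPM in replicate 2 and 145 CPM in replicate 1 (1.80-fold, interval 1.49 to 2.17). The folds of full-length and 5-exon Akr1cl thus lay on opposite sides of 1, with intervals that do not reach it. For each full-length read there were 0.278 reads of the 5-exon form of Akr1c18 in replicate 2 and 0.112 in replicate 1, and for Akr1cl 0.312 in replicate 2 and 0.126 in replicate 1.

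**Figure D4:**
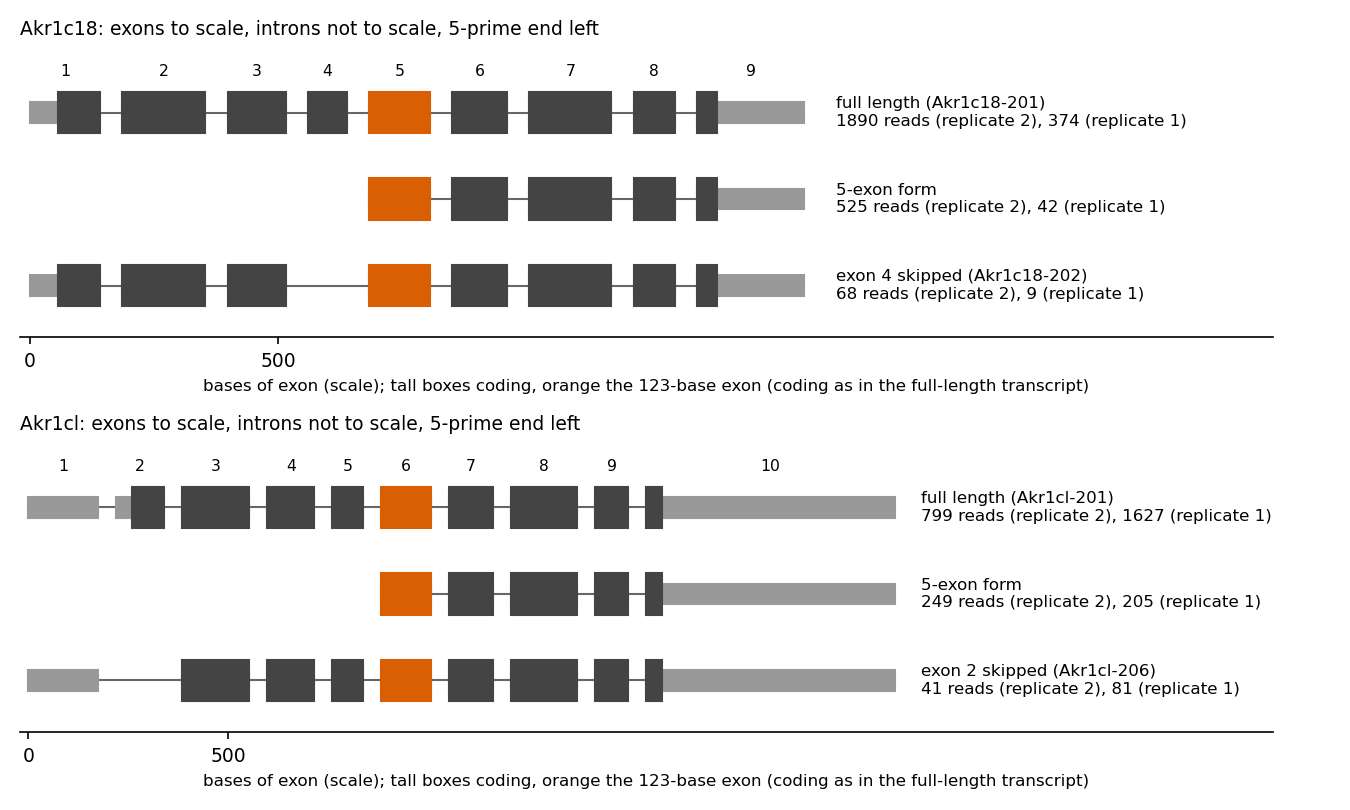
Exons of the full-length form, the 5-exon form and the leading exon-skipping form of Akr1c18 and Akr1cl, drawn to scale in bases along the full-length transcript with introns not to scale; tall boxes are coding in the full-length transcript and the 123-base exon is orange, with reads per library at the right. The 5-exon form of each gene begins at the orange exon, with 525 reads in replicate 2 and 42 in replicate 1 for Akr1c18, and 249 in replicate 2 and 205 in replicate 1 for Akr1cl.

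Few genes had a single 5′-truncated form of this size. Over the 6413 genes the largest such form took a median of 2.48% of reads in replicate 2 and 2.08% in replicate 1. In replicate 2, 3.76% of genes had a larger one than Akr1c18 and 4.26% a larger one than Akr1cl, and in replicate 1 these shares were 12.2% for Akr1c18 and 12.4% for Akr1cl. Summed over all forms that lack the 5′ part, the share was 22.1% in replicate 2 and 10.7% in replicate 1 for Akr1c18, and 26.7% in replicate 2 and 14.5% in replicate 1 for Akr1cl. Such a summed share was less rare. It was larger than that of Akr1c18 in 11.7% of genes in replicate 2 and 25.7% in replicate 1. For Akr1cl these were 9.03% in replicate 2 and 19.4% in replicate 1. The median difference of the summed share between the libraries was 0 points over all genes. A larger difference than that of Akr1c18 was seen in 2.03% of genes, and than that of Akr1cl in 1.67%. These are descriptions of 2 libraries, and no test of the shift itself was made beyond that of the main form.

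Most reads began in 2 exons of each gene. Among spliced Akr1c18 reads, 77.6% in replicate 2 and 89.3% in replicate 1 began in exon 1, and 20.5% in replicate 2 and 9.57% in replicate 1 in exon 5. No other exon held over 0.546% of the starts in either library. Among spliced Akr1cl reads, 71.9% in replicate 2 and 85.0% in replicate 1 began in exon 1, and 20.4% in replicate 2 and 10.3% in replicate 1 in exon 6. A smaller second point in Akr1cl was exon 9, where 5.42% of spliced reads in replicate 2 and 2.79% in replicate 1 began, almost all in a 2-exon form of 68 reads in replicate 2 and 59 in replicate 1. The largest step of the junction counts was at the same exon. Across the junction from exon 4 into the 123-base exon, Akr1c18 had 75.6% of the reads of its last junction in replicate 2 and 87.9% in replicate 1. Across the one that leaves the 123-base exon it had 98.9% in replicate 2 and 99.1% in replicate 1. A further 68 reads in replicate 2 and 9 in replicate 1 entered this exon from exon 3 and are not in the lower figures.

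**Figure D5:**
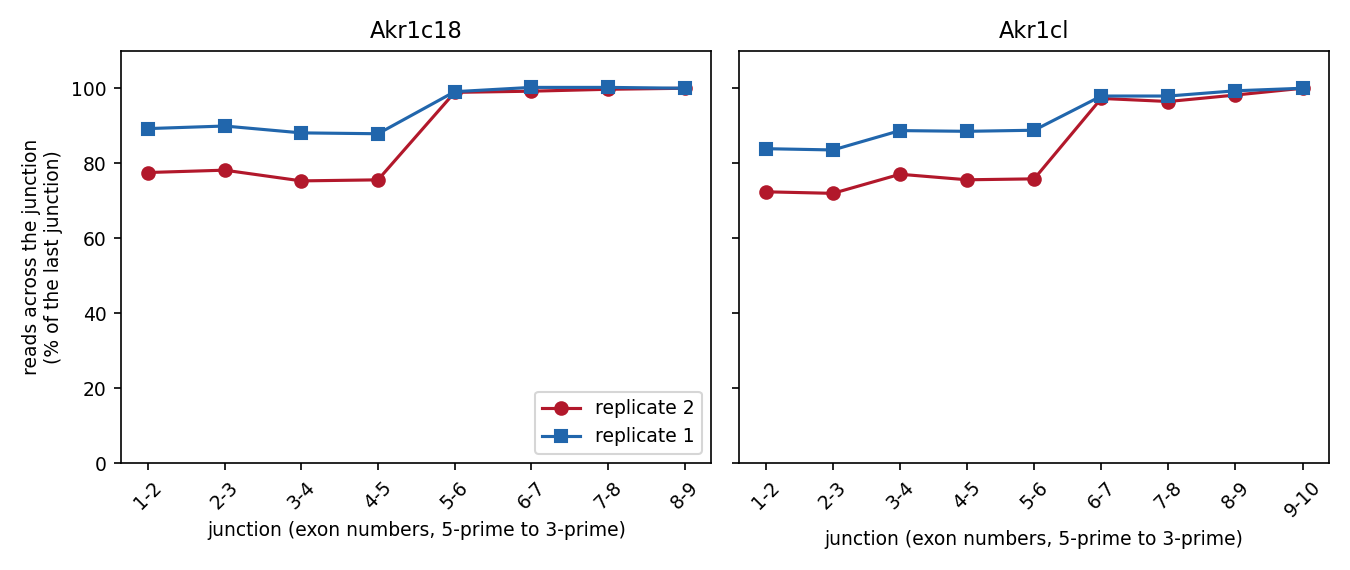
Reads across each junction between neighbouring exons of the full-length transcripts of Akr1c18 and Akr1cl, as a percentage of those across the last junction, in replicate 2 (red) and replicate 1 (blue), from the 5′ end at the left. In both genes the largest step up is at the junction after the 123-base exon, to 98.9% in replicate 2 and 99.1% in replicate 1 for Akr1c18, and to 97.3% in replicate 2 and 97.9% in replicate 1 for Akr1cl. Akr1cl has a smaller step at junction 3-4, to 77.1% in replicate 2 and 88.7% in replicate 1. Junctions made by skipping are not drawn. Reads that join exon 1 to exon 3 of Akr1cl, 47 in replicate 2 and 91 in replicate 1, thus first count at junction 3-4.

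Other aldo-keto reductases also have a 123-base exon 5, and few of their reads began there. In Akr1d1 the share was 3.31% of spliced reads (interval 2.66% to 4.06%) in replicate 2 and 2.90% (interval 2.37% to 3.52%) in replicate 1. In Akr1b7 it was 1.89% in replicate 2 and 1.15% in replicate 1, and in Akr1b8 1.34% in replicate 2 and 1.19% in replicate 1. Akr1b3, the aldose reductase gene, had 0 such reads of 155 in replicate 2 and 0 of 243 in replicate 1. The lowest bound for Akr1c18 and Akr1cl in either library was 6.98%, and the highest for Akr1d1, Akr1b7, Akr1b8 and Akr1b3 was 4.06%. Akr1b10 and Akr1e1 had too few spliced reads, at most 96 in a library, for a useful interval. Starts in exon 1 made up 84.5% of spliced Akr1d1 reads in replicate 2 and 82.7% in replicate 1, so this share was not higher in replicate 1 in every gene of the superfamily. In Akr1a1 they made up 95.7% in replicate 2 and 96.0% in replicate 1. Of the few reads of the sparse cluster members, 1 Akr1c13 read in replicate 1 also began in exon 5.

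The 5-exon form lacks the annotated start codon. It keeps 522 of the 969 coding bases of Akr1c18 (53.9%) and 522 of the 966 of Akr1cl (54.0%). In both, the first in-frame ATG of what remains is at base 4 of the 123-base exon, in the run gccatggag that opens both printed sequences, and it would leave 172 of 322 codons in Akr1c18 and of 321 in Akr1cl. Whether any protein is made from it cannot be read from RNA.

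Exon skipping was rare and differed between the genes. Akr1c18-202, an annotated coding transcript without the 78-base exon 4, had 68 reads in replicate 2 and 9 in replicate 1. Among reads that cover the place, exon 4 was skipped in 3.42% (interval 2.66% to 4.31%, 68 of 1989) in replicate 2 and 2.29% (interval 1.05% to 4.30%, 9 of 393) in replicate 1, so the intervals overlap. The exon's length is a multiple of 3, and the annotated coding sequence is 891 bases, which is 78 fewer than in the full form. The join of exons 3 and 5 reads as follows, with exon 5 in capitals and the flanks at chr13:4144290-4144304 and chr13:4142235-4142249.

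Akr1c18-202 join: ccagtgtctctgaagGCCATGGAGAAGTGT

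In Akr1cl, by contrast, the matching 78-base exon 5 was skipped in 0.433% of reads in replicate 2 (4 of 923, interval 0.118% to 1.11%) and 0.272% in replicate 1 (5 of 1840, interval 0.0883% to 0.633%). The intervals for this exon did not overlap between the genes in either library. The inner exon skipped most in Akr1cl was exon 2, of 121 bases, which holds the annotated start codon, at 5.13% (interval 3.79% to 6.76%) in replicate 2 and 5.01% (interval 4.05% to 6.11%) in replicate 1. Most of those reads were Akr1cl-206, with 41 reads in replicate 2 and 81 in replicate 1, whose annotated coding sequence of 873 bases begins further in. No read skipped the 123-base exon alone, of 1928 in replicate 2 and 381 in replicate 1 for Akr1c18, and of 917 in replicate 2 and 1809 in replicate 1 for Akr1cl. It was left out together with its neighbours in a junction from exon 3 to exon 6 of Akr1c18, with 1 read in each library, and in one from exon 2 to exon 7 of Akr1cl, with 0 reads in replicate 2 and 1 in replicate 1. A further junction of an Akr1c18 model spanned it and ended outside the gene, with 1 read in replicate 2 and 0 in replicate 1.

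Splicing otherwise kept to the annotation. Of all Akr1c18 junction crossings, 99.9% in replicate 2 and 99.8% in replicate 1 used annotated introns, and of those of Akr1cl 99.3% in replicate 2 and 99.5% in replicate 1. New spliced forms, which are new combinations of known splice sites or forms with a new splice site, were many but small. Akr1c18 had 18 of them with 26 reads in replicate 2 and 8 in replicate 1, of which 4 were in both libraries. Akr1cl had 57 with 61 reads in replicate 2 and 86 in replicate 1, of which 14 were in both. Only 1 in Akr1c18, with 5 reads in replicate 2 and 0 in replicate 1, and 3 in Akr1cl had 5 or more reads in a library.

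The 3 of Akr1cl were found in both libraries. The one with 5 reads in replicate 2 and 14 in replicate 1 had the intron between exons 6 and 7, the intron just after the 123-base exon, moved by 4 bases at both ends, so that exon 6 gained as many bases as exon 7 lost. The next, with 9 reads in replicate 2 and 10 in replicate 1, joined exon 9 to a splice site 51 bases away from the annotated one in the last exon, and the last, with 3 reads in replicate 2 and 5 in replicate 1, skipped exon 5. Forms that lack the 3′ part were also seen in Akr1cl, with 33 reads (2.52%) in replicate 2 and 34 (1.57%) in replicate 1, whereas Akr1c18 had 7 (0.272%) in replicate 2 and 1 (0.227%) in replicate 1. Known transcripts in all took 76.0% of Akr1c18 reads in replicate 2 and 86.8% in replicate 1, and 64.4% of Akr1cl reads in replicate 2 and 79.3% in replicate 1. The medians over 6413 genes were 76.9% in replicate 2 and 80.3% in replicate 1.

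The remaining forms with 5 or more reads in a library were mostly incomplete matches. Of Akr1c18 forms that lack the 5′ part, the 3-exon form had 14 reads in replicate 2 and 0 in replicate 1, the 8-exon form 12 in replicate 2 and 2 in replicate 1, the 2-exon form 7 in replicate 2 and 0 in replicate 1, and the 7-exon form 5 in replicate 2 and 2 in replicate 1. Each of these held far fewer reads than the 5-exon form in replicate 2. Of such Akr1cl forms, the 8-exon form had 10 reads in replicate 2 and 14 in replicate 1, the 3-exon form 4 in replicate 2 and 10 in replicate 1, the 7-exon form 2 in replicate 2 and 8 in replicate 1, and the 9-exon form 5 in each library. Of Akr1cl forms that lack the 3′ part, the 9-exon form had 15 reads in each library, the 4-exon form 12 in replicate 2 and 4 in replicate 1, and the 7-exon form 0 in replicate 2 and 5 in replicate 1. Akr1cl-204, an annotated transcript with a retained intron, had 1 read in replicate 2 and 8 in replicate 1. Single-exon models new to the annotation summed to 16 reads in replicate 2 and 2 in replicate 1 for Akr1c18, and 18 in replicate 2 and 12 in replicate 1 for Akr1cl.

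In Akr1c13, the only other member with 10 or more reads, the forms differed from those of the abundant genes. Akr1c13-201, its 9-exon coding transcript, had 3 reads in replicate 2 and 5 in replicate 1. A new 10-exon form that adds a 141-base exon, one that the annotation places in another Akr1c13 transcript, had 0 reads in replicate 2 and 6 in replicate 1. The 2 reads of Akr1c20, the 7 of Akr1c14 and the 1 of Akr1c21 were all assigned to annotated 9-exon coding transcripts. With counts this low no difference in form between libraries was detectable.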

How the data were processed

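Long reads from 2 adrenal libraries had been aligned to mm10 and assigned by the authors to transcript models with GENCODE M21, per the file headers and notes beside the files. The field names are those of TALON, and the aligner, versions and read filters are not given in the sources used here. The deposited tables hold the raw count of reads per model, and the paired annotation files the exons of each model. Reads of all models of an annotated gene were summed, ERCC and new-gene reads left out, and given as CPM. Replicate 2 held 1007541 reads and replicate 1 held 1478362, so 1 read is a coarse step for low genes and intervals cover counting error only.

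Genes with 10 or more reads over both libraries were compared by an exact two-sided binomial test with TMM scaling, and by edgeR's exact test with 1 common dispersion estimated over both libraries, which takes the differences of most genes as spread. A two-sided Fisher's exact test was run on main-form shares where each library had 20 or more reads. All p-values were Benjamini-Hochberg adjusted over all genes tested, and 0.05 was the threshold. Forms were defined by annotated transcript or intron chain. The scripts were tested on simulated data. There the binomial step recovered 69 of 119 changed genes and the Fisher step 84 of 200, each with 2 false calls. A gene that did not pass may thus still differ. The simulated reads varied by counting error only, without the wider spread between the real libraries. The false calls thus do not tell how many such calls the real libraries gave. Reads that skip an exon were set against reads that use both its junctions. Sequences are those of GENCODE M21 transcripts at GRCm38 (mm10) positions of the deposited annotation. Identities come from global alignments (Biopython 1.88).

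All genes whose name starts with Akr1c were named, with their forms of 5 or more reads, neighbours, and from each list the genes past the test, up to 4 by mean CPM and those at 0 in both. The members and lists were chosen with earlier results of these data known. Hsd17b8, 1 of the 20 listed steroid enzymes, did not match the annotation by name and was not analysed here. Alternatives covered the scaling, the filter on reads, the classes of models counted, depth and each library alone. The tools were R 4.3.3 with edgeR 4.0.16 and, as an alternative scaling, DESeq2 1.42.0, and Python 3.11.15 with scipy 1.17.1 and statsmodels 0.14.6 for tests and pandas 2.3.3 for tables.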

Additional observations from a re-analysis of the deposited data

Results flagged for a closer look

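A transcript model that is new to the annotation lay opposite Akr1cl, outside the genes compared above. It is a single exon on the plus strand that starts at chr1:65028732, the last base of the processed pseudogene Gm8550, inside the long intron between exons 2 and 3 of Akr1cl. It held 14 reads (14.99 CPM) in replicate 2 and 5 reads (3.54 CPM) in replicate 1, in each case above the 3 reads that a count of 0 allows, and it ran to position 65030386 in replicate 2 and 65030559 in replicate 1. Gm8550 itself had 7 reads in replicate 2 and 2 in replicate 1. The series has no control samples, and no test was made on so few reads. Whether the strand of these unspliced reads is right was not tested.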

How the results depend on the processing

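Over 54 recomputed values, leaving out those of a single library, 44 kept their direction and their side of the threshold, or moved by less than the spread or by less than 1.5 times for a count. For levels and known-transcript shares the spread is the SD of 2 libraries, which is a weak check. For the level of Akr1c18 it exceeded the mean (1731 against 1536 CPM). As Akr1c18 had 0 genomic reads, leaving these out could not move its share of known transcripts. No log2 ratio of an Akr1c gene changed sign, whereas of the listed genes Akr1d1 (0.920-fold) and Cyp21a1 (0.896-fold) turned with the spike-in total. The log2 ratio of Akr1cl was -0.13 both with total gene reads (adjusted binomial p = 0.0826) and without genomic and antisense models (adjusted binomial p = 0.0643), and did not pass. The number of Akr1c genes that passed was then 1, as it was with replicate 1 thinned to the depth of replicate 2. Akr1c18 passed in all of these, with log2 ratios of 2.79 to 3.15. With the spike-in total, 2360 genes passed. With known transcripts only, the mean level of Akr1c13 was 4.49 CPM and that of Akr1c20 1.19 CPM. Without incomplete splice matches and genomic models, the mean main-form share was 95.5% for Akr1c18 (adjusted p = 1.0 by Fisher's exact test) and 89.3% for Akr1cl (adjusted p = 0.766). With such matches added to the known transcript that contains them, where only 1 does, both genes still passed. The levels of each library alone are those printed above, and with 2 libraries each lies within 1 SD of the mean by construction. No model of another gene was available to add to an Akr1c gene. No paired analysis was possible because the series holds 1 group. Depth limits the 6 cluster members other than Akr1c18 and Akr1c13, which had at most 7 reads in all, and with 2 libraries no spread of Akr1c18 itself could be told from the difference between them.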
